A study of Mus musculus with 72 samples.

Results

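The metabotropic GABA-B receptor and its auxiliary KCTD subunits were described from the count rows of 5 genes, Gabbr1, Gabbr2, Kctd8, Kctd12 and Kctd16, out of 53715 gene rows. The genes were picked by name, as the receptor subunits and the partners that bind G protein beta-gamma and shape potassium channel responses. The rule used no measured value, but it was written with earlier results of these data known. They were followed through 72 total RNA sequencing libraries from 18 male C57BL/6J mice aged 18 weeks, with 6 mice each of Gnb5-/-, Gnb5+/- and wild-type (Gnb5+/+) genotype. The deletion of Gnb5 exon 3 was carried in the germline and so was present in every cell of the mutants. Atria and ventricles, each taken whole, were sequenced in all 3 genotypes, whereas whole cerebellum, hippocampus and cerebral cortex were sequenced in Gnb5-/- and wild-type mice alone, giving 12 groups of 6 libraries. The data allow the question of whether loss of Gnb5 was accompanied by a change in the RNA of this receptor complex, and of how the complex is composed in heart and brain.

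The GABA-B receptor is an obligate pair of G protein-coupled membrane proteins. The Gabbr1 product binds GABA, and the Gabbr2 product carries the coupled Gi/o protein and brings its partner to the cell surface. Freed G protein beta-gamma opens inwardly rectifying GIRK potassium channels and inhibits presynaptic calcium channels, and KCTD proteins attached to the Gabbr2 tail bind beta-gamma too: with Kctd12 the current desensitises quickly, while with Kctd8 or Kctd16 it is largely sustained. Gnb5 encodes G beta 5, the obligate partner of the R7 family of RGS proteins, which speed the switching off of Gi/o.

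The proximal promoters of both receptor subunits are shown because these genes, whose products form a single receptor, differed in their heart levels, with Gabbr2 close to absent. Each sequence is the 250 bases before the RefSeq start of the gene (GRCm38.p6), read 5′ to 3′ on the strand of the gene, with CpG dinucleotides in capitals. The Gabbr1 window is chr17:37045716-37045965 (plus strand) and the Gabbr2 window is chr4:46991715-46991964 (minus strand). In the GRCm38 annotation used here for gene positions, Gabbr2 reaches to 46991873, so part of its window lies inside the annotated gene. The Gabbr1 window ends just before the annotated start at 37045966, so the windows are not placed alike on that annotation.
Gabbr1: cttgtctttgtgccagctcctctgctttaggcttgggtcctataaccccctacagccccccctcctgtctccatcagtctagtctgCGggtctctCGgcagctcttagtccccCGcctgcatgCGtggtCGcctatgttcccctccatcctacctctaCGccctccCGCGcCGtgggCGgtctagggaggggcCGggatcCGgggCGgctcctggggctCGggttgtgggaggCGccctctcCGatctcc
Gabbr2: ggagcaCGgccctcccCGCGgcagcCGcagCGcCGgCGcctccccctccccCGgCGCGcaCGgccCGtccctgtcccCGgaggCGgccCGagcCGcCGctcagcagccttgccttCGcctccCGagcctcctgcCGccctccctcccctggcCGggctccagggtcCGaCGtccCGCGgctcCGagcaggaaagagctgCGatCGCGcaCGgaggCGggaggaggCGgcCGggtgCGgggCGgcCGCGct
The Gabbr1 window held 16 CpG and the Gabbr2 window 37, against a median of 6 over 32851 windows of the same length, and these counts were higher than those of 74.6% and 97.8% of all windows. Both held the GC box GGGCGG on 1 strand or the other, as did 32.7% of all windows, and neither held TATAAA, found in 12.4%. These matches describe the letters in the windows only.

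In the GRCm38 annotation, Gabbr1 lies on chromosome 17 (37045966 to 37075067, plus strand) and its exons cover 7764 bases. Gabbr2 lies on chromosome 4 (46662305 to 46991873, minus strand; 6686 exonic bases). Kctd8 is on chromosome 5 (69109285 to 69341679, minus strand; 3373 exonic bases), Kctd12 on chromosome 14 (102976581 to 102982637, minus strand; 6057 exonic bases) and Kctd16 on chromosome 18 (40256962 to 40531630, plus strand; 3477 exonic bases). All are protein-coding genes, and a count covers all exons of a gene. Exons of Kctd12 overlap the opposite-strand Gm26778, which held 743 reads over the 72 libraries, and exons of Kctd8 overlap the opposite-strand miRNA gene Gm24368, which held 12. Kctd16 exons overlap an opposite-strand transcript, AC098707.1, whose counts were not analysed here.

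Between 29204390 and 48807435 reads per library were assigned to genes, with a median of 38864900. Levels are given as CPM, the count of a gene scaled to library size after TMM normalisation over the 72 libraries, and levels of different genes are set side by side only as CPM per kilobase of exon. Gnb5 itself was at 33.4 CPM in wild-type atria, 17.4 in Gnb5+/- and 2.06 in Gnb5-/- atria, and in the brain it was at 76.6 to 104 CPM in wild-type and 9.90 to 14.5 CPM in Gnb5-/- regions, as the labels state. Marker genes separated the tissues: the atrial muscle markers Myl7, Sln and Myl4 summed to 9796 to 13168 CPM in wild-type atria and 50.8 to 199 CPM in ventricles, and the cerebellar granule cell markers Gabra6, Neurod1 and Cbln3 summed to 1920 to 2183 CPM in cerebellum and at most 16.2 CPM in hippocampus and cortex. Of the 36 brain libraries, 3 stood apart, all Gnb5-/-: the cortex of mouse 14, the cerebellum of mouse 12 and the cortex of mouse 3 had 6.86%, 8.02% and 8.32% of their counted reads outside genes, against 11.7% to 16.97% in the other 33. Results that rest on these libraries are given with and without them. In bulk tissue, fewer cells of a type and less RNA per cell cannot be told apart.

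In wild-type mice the GABA-binding subunit Gabbr1 was at 488 to 572 CPM in all libraries of the 3 brain regions and was present, at a far lower level, in both heart tissues. In the cerebellum the lowest, median and highest libraries were at 488, 522 and 538 CPM. The hippocampal libraries were at 525, 544 and 566 CPM and the cortical ones at 542, 544 and 572 CPM. The hippocampal range overlapped both others, whereas every cerebellar library was below every cortical one. Within mice, cerebellum was below cortex in 6 of 6 and below hippocampus in 5 of 6, and hippocampus was below cortex in 4 of 6. The edgeR contrast between cerebellum and cortex, in the fit of the 30 wild-type libraries, was -0.01 on the log2 scale (95% interval -0.14 to 0.11) and did not pass the threshold (adjusted p = 0.855). The CPM ranges and the order within mice use TMM factors over all 72 libraries, and this contrast uses factors over the 30. A difference between cerebellum and cortex was not seen on the scale of the test. In atria Gabbr1 was at 23.98, 28.0 and 31.1 CPM, and in ventricles at 18.7, 22.4 and 27.3 CPM. Heart and brain did not overlap, and atria were higher than ventricles in 5 of 6 mice, by 0.32 on the log2 scale (SE 0.07, edgeR adjusted p = 0.00018).

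Gabbr2, the subunit that couples to the G protein, was a brain transcript. Its wild-type libraries were at 193, 207 and 215 CPM (lowest, median and highest) in cerebellum. In hippocampus they were at 257, 266 and 279.5 CPM, and in cortex at 235, 276 and 284 CPM. Cerebellum lay below both forebrain regions in 6 of 6 mice, with edgeR log2 differences of -0.31 from hippocampus (adjusted p = 0.0238) and -0.32 from cortex (adjusted p = 0.0208), whereas hippocampus and cortex overlapped and differed by -0.01 (95% interval -0.26 to 0.24). In wild-type atria, Gabbr2 was at 0.390, 0.539 and 1.203 CPM, from 12 to 41 reads a library. In ventricles it was near the limit of detection: 14 reads in all 6 wild-type libraries, 9 of them in mouse 17 and none in 3 libraries, with 3 reads in the Gnb5+/- and 6 in the Gnb5-/- ventricles. Atria were higher than ventricles in 6 of 6 mice by 2.58 on the log2 scale (SE 0.45, edgeR adjusted p = 1.2e-05), which was 3.50 without mouse 17.

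The balance of the pair differed between organs on the per-length scale. Gabbr1 was at 66.7 ± 2.34 CPM per kilobase (SD, n = 6) in wild-type cerebellum, 70.2 ± 2.33 in hippocampus and 70.9 ± 1.51 in cortex, and Gabbr2 at 30.8 ± 1.35, 39.8 ± 1.27 and 40.4 ± 2.78. The ratio of Gabbr1 to Gabbr2 per length was 2.17 ± 0.115 in cerebellum, 1.76 ± 0.0368 in hippocampus and 1.76 ± 0.130 in cortex. In atria the ratio ran from 17.2 to 65.4 over the 6 mice, above every wild-type brain library, with a mean of 43.8 ± 19.6, and in ventricles the Gabbr2 counts were too low for a ratio. Per-length values rest on the union of all exons, and the choice of length does not alter how a ratio differs between tissues.

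Kctd12, the auxiliary subunit linked to fast desensitisation, was the most abundant of the 3 KCTD partners per length in every tissue and fell in steps from cerebellum to hippocampus to cortex. Its wild-type libraries were at 223, 237 and 257 CPM in cerebellum. In hippocampus they were at 154, 167 and 174 CPM, and in cortex at 61.8, 68.2 and 77.9 CPM. No regional range overlapped another, and the order held in 6 of 6 mice for each pair of regions, with edgeR log2 differences of 0.58 (SE 0.11) between cerebellum and hippocampus and 1.28 (SE 0.11) between hippocampus and cortex. In atria Kctd12 was at 30.3, 31.2 and 45.3 CPM and in ventricles at 29.6, 38.7 and 59.7 CPM. The heart tissues overlapped, with a log2 difference of -0.19 (95% interval -0.42 to 0.04, adjusted p = 0.163).

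Kctd8, one of the partners linked to sustained currents, was highest in cerebellum at 11.4, 12.04 and 13.7 CPM. It was at 2.81, 3.76 and 4.18 CPM in hippocampus and at 3.93, 4.35 and 5.00 CPM in cortex. Cerebellum did not overlap either forebrain region and was higher in 6 of 6 mice, by 1.81 (SE 0.17) and 1.54 (SE 0.17) on the log2 scale. Cortex was above hippocampus in 6 of 6 mice, but the difference of -0.27 passed the edgeR threshold in the fit of those 12 libraries alone (adjusted p = 0.0384) and not in the fit of all 30 wild-type libraries (adjusted p = 0.238). In atria Kctd8 was at 1.36, 2.58 and 3.29 CPM, and in ventricles at 0.494, 0.790 and 1.44 CPM. Atria were higher in 6 of 6 mice by 1.41 on the log2 scale (SE 0.22), although the ranges overlapped.

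Kctd16, the other partner linked to sustained currents, ran in the opposite order to Kctd12 across the brain. It was at 10.99, 13.8 and 15.2 CPM in wild-type cortex and at 4.93, 6.76 and 10.1 CPM in hippocampus. In cerebellum it was at 0.362, 0.558 and 0.781 CPM, from 22 to 50 reads a library. The 3 regions did not overlap: cerebellum lay 3.66 below hippocampus (SE 0.21) and hippocampus 0.88 below cortex (SE 0.17) on the log2 scale, each in 6 of 6 mice. In the heart it was close to absent, with 6 reads over the 6 wild-type atria and 34 over the 6 ventricles. Ventricles were above atria in 6 of 6 mice, and the fitted difference of -2.93 (SE 0.55, adjusted p = 4.2e-05) rested on those few reads.

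Across the wild-type contrasts, 5 of 5 genes were lower in heart than in brain by edgeR, where 90.9% of the 19477 genes tested differed and 50.2% were lower. The log2 differences were -1.91 for Kctd12, -1.998 for Kctd8, -4.44 for Gabbr1, -5.29 for Kctd16 and -9.81 for Gabbr2, beside a median of -0.22 over all genes, and the Gabbr2 and Kctd16 values rest in part on libraries with almost no reads. Between atria and ventricles 4 of 5 passed the threshold (51.6% of all genes), between cerebellum and hippocampus 4 of 5 (68.3%), between cerebellum and cortex 4 of 5 (69.1%) and between hippocampus and cortex 2 of 5 (33.5%). These counts were not read as particular to the complex, since most genes differed between the tissues. The largest spread between brain regions belonged to Kctd16 and the smallest to Gabbr1, whose coefficient of variation within wild-type cortex and hippocampus was 2.13% and 3.33%, against 30.3% for Kctd16 in hippocampus.

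**Figure D1:**
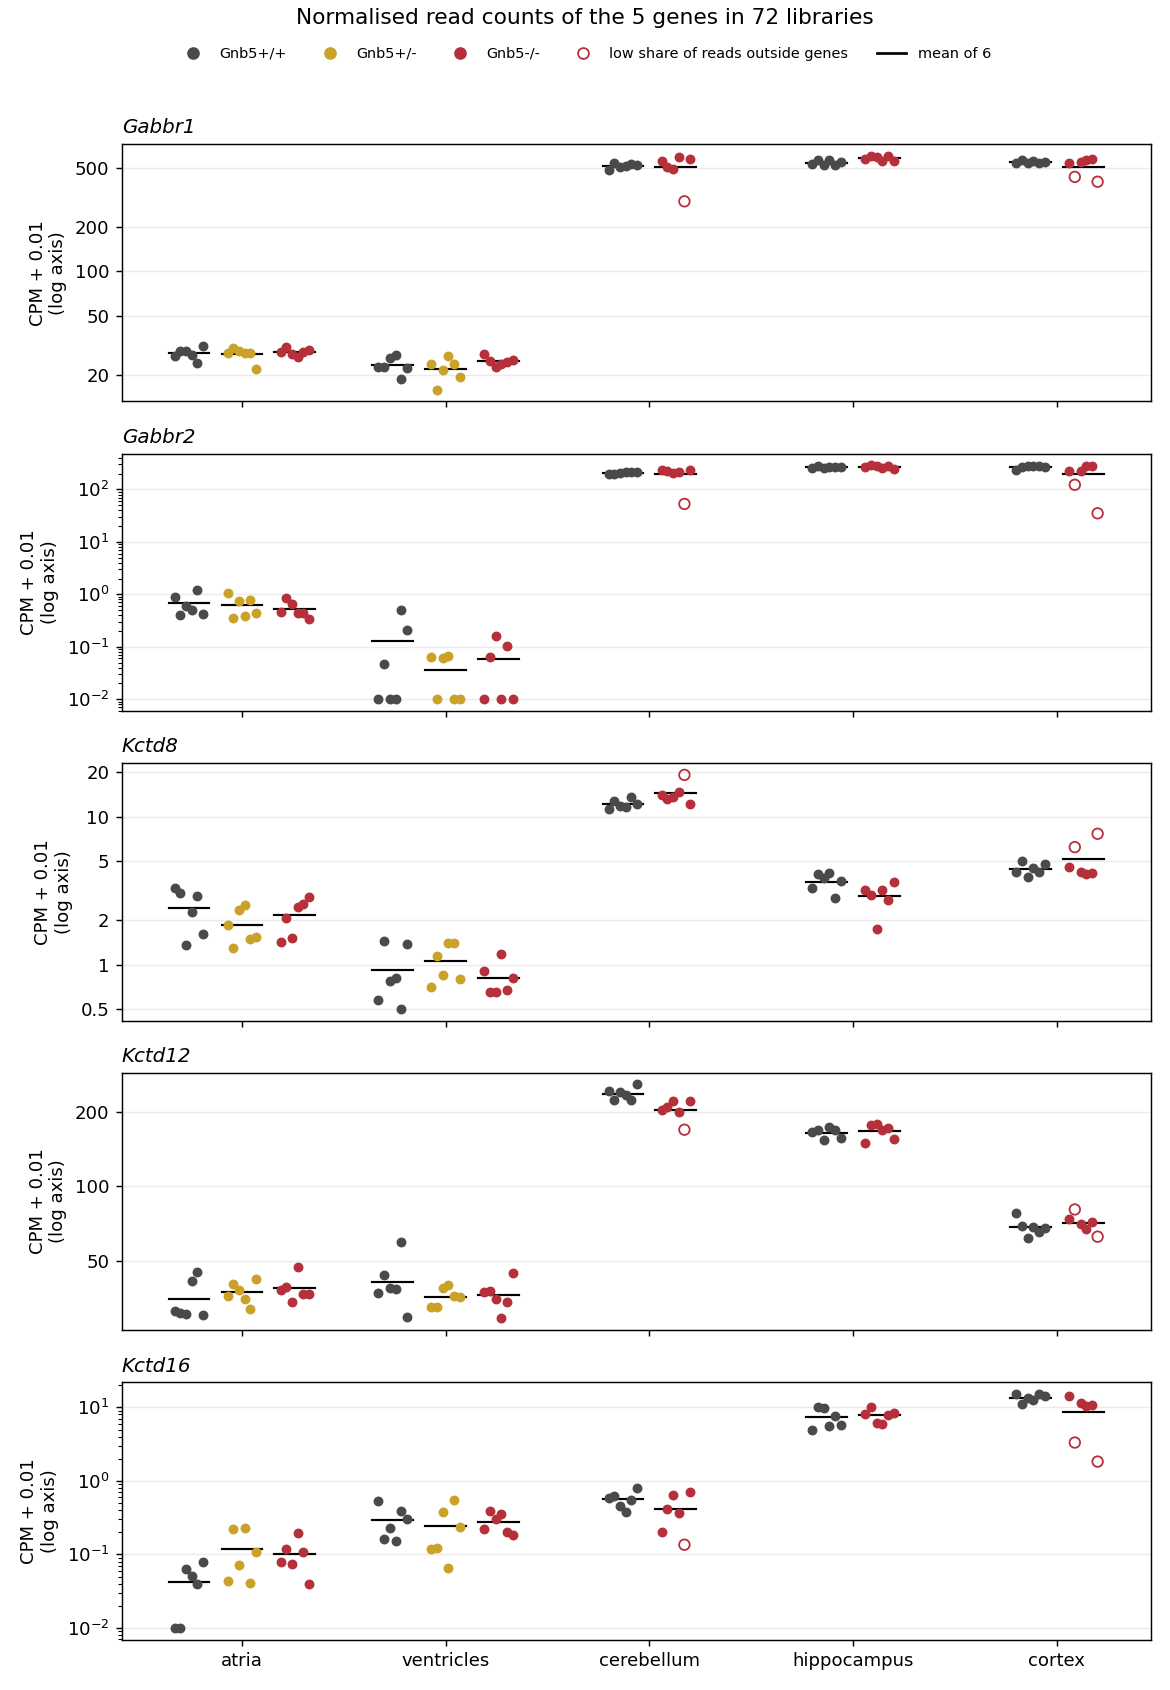
CPM of each of the 5 genes (log axes, 0.01 added) in every library, grouped by tissue and genotype. Points are single libraries, bars the means of 6. Gabbr1 is at 488 to 572 CPM across the wild-type brain libraries, Gabbr2 and Kctd16 are near 0 in the heart, and the low Gnb5-/- points in cerebellum and cortex for Gabbr2 are the libraries of mice 12, 14 and 3.

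The make-up of the KCTD partners also differed by tissue. Of the summed per-length level of Kctd8, Kctd12 and Kctd16, Kctd12 made up 91.1% ± 0.875 (SD, n = 6) in wild-type cerebellum, 89.5% ± 2.15 in hippocampus and 68.4% ± 1.99 in cortex. Kctd16 made up 0.369% ± 0.0873, 6.92% ± 2.02 and 23.6% ± 2.40 in the same order, and Kctd8 8.51% ± 0.864, 3.57% ± 0.485 and 7.999% ± 0.852. In the heart Kctd12 made up 88.8% ± 3.43 in atria and 94.8% ± 2.24 in ventricles, Kctd8 11.02% ± 3.55 and 4.03% ± 2.19, and Kctd16 0.149% ± 0.147 and 1.18% ± 0.656. The cortex had the smallest share of Kctd12 and the largest share of Kctd16 of the 5 tissues, and in cortex and hippocampus the share of Kctd16 was above that of Kctd8, whereas in cerebellum, atria and ventricles Kctd8 was above Kctd16. The summed KCTD level stood at 0.643 ± 0.0439 of the Gabbr1 level per length in cerebellum, 0.432 ± 0.0175 in hippocampus and 0.233 ± 0.0171 in cortex, against 1.85 ± 0.503 in atria and 2.48 ± 0.891 in ventricles. No test was made of these shares, which restate the levels above.

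**Figure D2:**
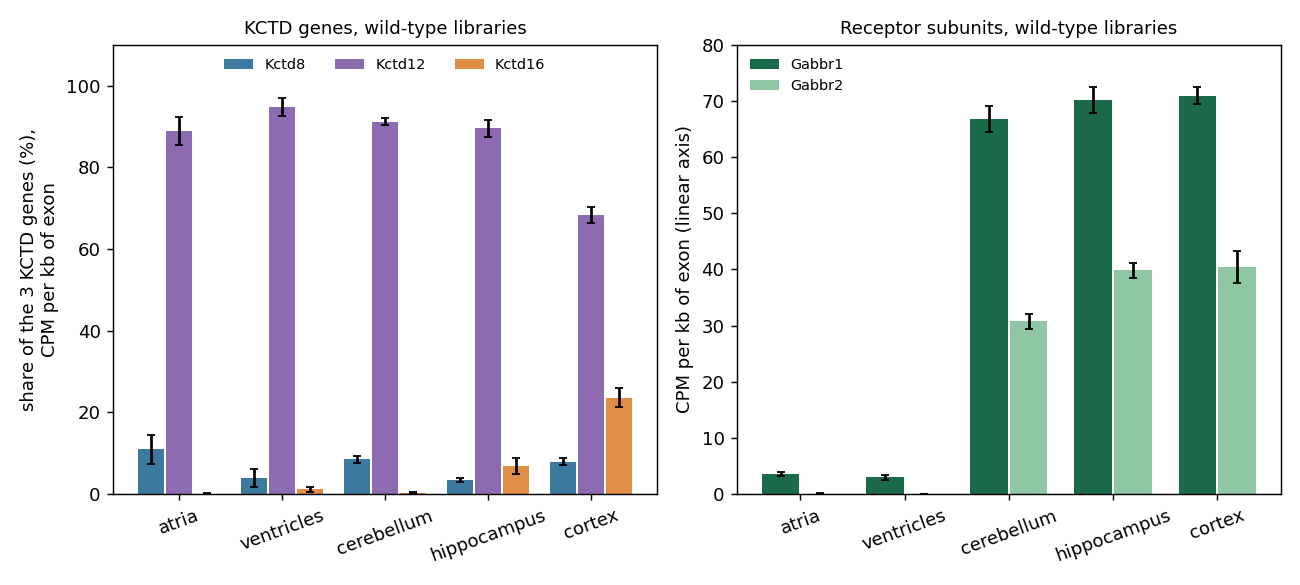
Left, share of Kctd8, Kctd12 and Kctd16 (percent) in their summed CPM per kilobase of exon in the 5 wild-type tissues. Right, CPM per kilobase of Gabbr1 and Gabbr2 on a linear axis. Bars are means of 6 libraries and error bars SD. Kctd16 reaches 23.6% in cortex and 0.369% in cerebellum, and Gabbr2 is visible in the brain alone.

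The 5 genes were then compared between genotypes within each tissue. None passed the edgeR threshold of an adjusted p under 0.05 in any of the 9 comparisons, and none did by DESeq2. By edgeR the share of all tested genes that passed was 0.253% for Gnb5-/- against wild-type atria, 0.188% in ventricles, 0.0817% in cerebellum, 0.165% in hippocampus and 0.0557% in cortex. It was 0.0124% and 0.0202% for Gnb5+/- against wild-type atria and ventricles, and 0.0494% and 0.0874% for Gnb5-/- against Gnb5+/-. By DESeq2 the shares were 0.378%, 0.219%, 0.2%, 0.341% and 0.106% for Gnb5-/- against wild-type in the same order of tissues, 0.0268% and 0.0106% for Gnb5+/- against wild-type, and 0.0837% and 0.244% for Gnb5-/- against Gnb5+/-. At an unadjusted p under 0.05, 2 of 5 genes counted in cerebellum (5.85% of all genes) and 2 of 5 in hippocampus (7.7%), and 0 in the other 7 comparisons. There, 8.15%, 4.78% and 7.39% of all genes did for Gnb5-/- against wild-type atria, ventricles and cortex, 7.22% and 4.84% for Gnb5+/- against wild-type atria and ventricles, and 4.86% and 8.79% for Gnb5-/- against Gnb5+/-. DESeq2 gave 2 in cerebellum, 2 in hippocampus and 1 in Gnb5+/- against wild-type atria. The percentages at this level are those of edgeR, and the DESeq2 shares of all genes are not reported here.

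In the cerebellum the value nearest to a difference was that of Kctd12. Its 6 wild-type libraries lay at 223, 237 and 257 CPM and its 6 Gnb5-/- libraries at 169, 206 and 222 CPM. The groups were adjacent on this scale and overlapped when normalised among the cerebellar libraries alone, as in the test. The log2 difference was -0.21 (SE 0.07, 95% interval -0.37 to -0.06), with 6 of 6 Gnb5-/- libraries below the wild-type mean. It did not pass the edgeR threshold over all genes (p = 0.0116, adjusted p = 0.583), although the exact permutation test of this gene alone (two-sided, 924 splits) gave p = 0.00433. Without mouse 12, whose library stood apart, the Gnb5-/- range was 198 to 222 CPM and the log2 difference -0.17 (SE 0.05, adjusted p = 0.209).

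The other 4 genes of the complex overlapped between cerebellar groups. Kctd8 was at 11.4, 12.04 and 13.7 CPM in wild-type and 12.2, 13.7 and 19.2 CPM in Gnb5-/- mice, a log2 difference of 0.24 (SE 0.11, adjusted p = 0.583) that was 0.14 without mouse 12. Gabbr1 was at 298, 534 and 595 CPM in Gnb5-/- cerebellum against 488 to 538 CPM in wild-type, with a log2 difference of -0.04 (95% interval -0.32 to 0.25). Gabbr2 was at 52.9, 222 and 236 CPM against 193 to 215 CPM, with a log2 difference of -0.09 (95% interval -0.65 to 0.48). In both receptor subunits the lowest value belonged to mouse 12, and without it their log2 differences were 0.08 and 0.11, neither past the threshold (adjusted p = 0.554 and 0.372). Kctd16 was at 0.125, 0.379 and 0.691 CPM in Gnb5-/- cerebellum and 0.362 to 0.781 CPM in wild-type, with a log2 difference of -0.46 (95% interval -1.24 to 0.31). Its lowest value also belonged to mouse 12, and without that mouse the Gnb5-/- range was 0.192 to 0.691 CPM.

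In the hippocampus no library stood apart in its share of reads outside genes. The intervals of Gabbr1, Gabbr2, Kctd12 and Kctd16 were the narrowest of the brain regions there. The choroid plexus markers summed to between 24.7 and 1152 CPM in the wild-type hippocampal libraries, and their part was not tested. Gabbr1 was at 525, 544 and 566 CPM in wild-type and 557, 585 and 606 CPM in Gnb5-/- mice. All 6 Gnb5-/- libraries were above the wild-type mean, but the ranges overlapped, and the log2 difference of 0.09 (SE 0.03, 95% interval 0.02 to 0.16) did not pass the edgeR threshold over all genes (adjusted p = 0.532). The exact permutation test of this gene alone (two-sided) gave p = 0.0173, unadjusted. Gabbr2 was at 244, 274 and 288 CPM in Gnb5-/- against 257 to 279.5 CPM, with a log2 difference of 0.01 and an interval from -0.08 to 0.10. Kctd12 was at 149, 171 and 179 CPM against 154 to 174 CPM, with a difference of 0.02 (95% interval -0.08 to 0.12).

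The scarcer partners were measured less closely in the hippocampus. Kctd8 was at 1.73, 3.07 and 3.63 CPM in Gnb5-/- against 2.81, 3.76 and 4.18 CPM in wild-type, with 5 of 6 Gnb5-/- libraries below the wild-type mean. Its log2 difference of -0.33 (SE 0.15) had an adjusted p of 0.647. Kctd16 was at 6.01, 8.04 and 10.1 CPM against 4.93, 6.76 and 10.1 CPM, a difference of 0.10 with an interval from -0.30 to 0.49. The groups overlapped for both genes.

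In the cortex the Gnb5-/- libraries were widely spread for Gabbr2 and Kctd16. Gabbr2 was at 35.1, 225 and 281 CPM against 235, 276 and 284 CPM in wild-type, and its log2 difference of -0.48 (SE 0.35, adjusted p = 0.495) was -0.26 without mouse 14 and -0.10 without mice 14 and 3. Kctd16 was at 1.82, 10.6 and 14.4 CPM against 10.99, 13.8 and 15.2 CPM. Its log2 difference of -0.64 (SE 0.38, adjusted p = 0.474) was -0.43 without mouse 14 and -0.21 without both (adjusted p = 0.979). Both genes overlapped between genotypes, and the values moved toward 0 as the libraries with few reads outside genes were left out. Gabbr1 was at 404, 542 and 578 CPM against 542 to 572 CPM, with a log2 difference of -0.08 (95% interval -0.27 to 0.10) that was 0.02 without the 2 libraries. Kctd12 was at 62.7, 71.1 and 80.7 CPM against 61.8 to 77.9 CPM (log2 difference 0.08, 95% interval -0.08 to 0.24), and Kctd8 at 4.12, 4.40 and 7.68 CPM against 3.93 to 5.00 CPM (0.25, or -0.06 without the 2 libraries).

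In the atria, 4 of the 5 genes passed the filter on low counts. Gabbr1 was at 23.98, 28.0 and 31.1 CPM in wild-type, 21.8, 28.2 and 30.2 CPM in Gnb5+/- and 26.4, 28.5 and 31.0 CPM in Gnb5-/- mice. The 3 genotypes overlapped, and the log2 difference of Gnb5-/- from wild-type was 0.04 (95% interval -0.13 to 0.20). Kctd12 was at 31.9, 37.2 and 42.4 CPM in Gnb5+/- and 34.2, 37.6 and 47.2 CPM in Gnb5-/- against 30.3 to 45.3 CPM in wild-type atria, with log2 differences of 0.10 and 0.15 (adjusted p = 0.889 and 0.806). Gabbr2 was at 0.350, 0.589 and 1.06 CPM in Gnb5+/- and 0.330, 0.445 and 0.835 CPM in Gnb5-/- against 0.390 to 1.203 CPM. Its 95% interval for Gnb5-/- against wild-type ran from -1.06 to 0.37, and differences within that range are compatible with these libraries.

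For Kctd8 in atria the values were 1.29, 1.69 and 2.55 CPM in Gnb5+/- and 1.41, 2.26 and 2.88 CPM in Gnb5-/- against 1.36 to 3.29 CPM in wild-type. The log2 difference of Gnb5+/- from wild-type was -0.39 (SE 0.24, adjusted p = 0.780) and that of Gnb5-/- was -0.16 (SE 0.24, adjusted p = 0.921). The groups overlapped, and neither genotype differed beyond the spread of the libraries. Kctd16, which did not pass the filter, had 6 reads in wild-type, 23 in Gnb5+/- and 21 in Gnb5-/- atria. A wild-type library held 0 to 2 reads and a mutant library 1 to 8, so the groups overlapped, and exact permutation tests (two-sided) gave p = 0.0584 and 0.0281, unadjusted.

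In the ventricles, 3 of the 5 genes passed the filter. Gabbr1 was at 15.8, 22.5 and 26.6 CPM in Gnb5+/- and 22.7, 24.6 and 27.6 CPM in Gnb5-/- against 18.7, 22.4 and 27.3 CPM in wild-type ventricles, with log2 differences from wild-type of -0.09 (SE 0.11) and 0.09 (SE 0.11). Kctd12 was at 32.5, 35.9 and 39.9 CPM in Gnb5+/- and 29.3, 36.4 and 44.9 CPM in Gnb5-/- against 29.6, 38.7 and 59.7 CPM, with differences of -0.21 (SE 0.13) and -0.19 (SE 0.13). Kctd8 was at 0.694, 0.991 and 1.40 CPM in Gnb5+/- and 0.642, 0.735 and 1.18 CPM in Gnb5-/- against 0.494 to 1.44 CPM. All groups overlapped, and the lowest adjusted p of the 3 genes against wild-type was 0.965. Kctd16 had 26 reads in Gnb5+/- and 35 in Gnb5-/- ventricles against 34 in wild-type.

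**Figure D3:**
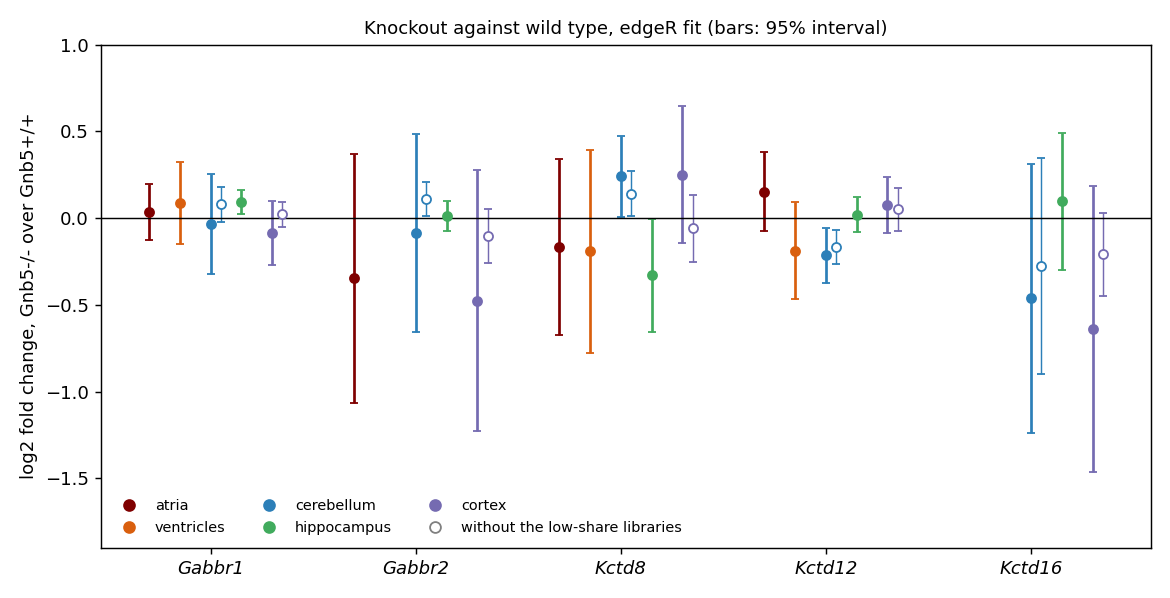
Log2 fold change of each gene in Gnb5-/- over wild-type mice, in each tissue where the gene was tested (edgeR), with 95% intervals. Filled points use all libraries, and open points leave out the Gnb5-/- libraries of low outside-gene share. No adjusted p passed 0.05. Intervals are narrow for Gabbr1, Gabbr2 and Kctd12 in hippocampus and wide for Gabbr2 and Kctd16 in cortex.

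Gabbr2 was among the genes lowest in the 3 Gnb5-/- libraries with few reads outside genes. Against the mean of the other Gnb5-/- libraries of the same region, Gabbr2 was 4.21-fold lower in the cerebellum of mouse 12, 7.17-fold lower in the cortex of mouse 14 and 2.05-fold lower in the cortex of mouse 3. Of all genes compared, 3.51%, 3.43% and 5.30% had a lower ratio. Kctd16 was at 0.277, 0.155 and 0.283 of the other libraries, and Gabbr1 at 0.544, 0.724 and 0.781. For Gabbr1, 18.2%, 40.9% and 25.2% of all genes had a lower ratio. Kctd16 was also among the lowest genes in cortex, where 3.82% (mouse 14) and 1.57% (mouse 3) had a lower ratio. Its share in the cerebellum of mouse 12 is not reported here. In the same libraries Kctd8 was higher, at 1.42, 1.802 and 1.46 of the others, and Kctd12 was at 0.803, 0.885 and 1.14. For Kctd8, 71.99%, 81.8% and 86.6% of all genes had a lower ratio, so its rise was not read as particular to it. The share of the 3 KCTD genes held by Kctd16 in Gnb5-/- cortex was 15.4% ± 8.23 with these libraries and 20.6% ± 1.95 (n = 4) without them, and the Gabbr1 to Gabbr2 ratio was 3.45 ± 3.21 and 1.93 ± 0.169.

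Markers of brain cells moved in these libraries too. Mog, an oligodendrocyte marker, was at 43.4 CPM in the cerebellum of mouse 12 against 17.4 to 28.3 CPM in the other Gnb5-/- cerebella, and at 26.6 and 28.6 CPM in the cortex of mice 14 and 3 against 22.5 to 24.4 CPM. Mbp, which encodes a myelin protein, was at 1935 CPM against 902 to 1309 CPM in cerebellum, and in cortex its 1025 and 1171 CPM lay within the range of the other libraries (999 to 1194 CPM). The astrocyte markers Aqp4, Aldh1l1 and Slc1a3 were at 986 CPM against 1452 to 1562 CPM in cerebellum, and at 376 and 674 CPM against 755.8 to 828 CPM in cortex. The neuronal markers Rbfox3, Snap25, Syt1 and Stmn2 were at 3368 CPM against 2449 to 2784 CPM in cerebellum, and at 3831 and 3165 CPM against 2901 to 3273 CPM in cortex. Within that sum, Rbfox3 and Syt1 were below and Snap25 and Stmn2 above the range of the other libraries in all 3: Rbfox3 was at 117 CPM against 252 to 277 CPM in cerebellum, and at 46.1 and 120.5 CPM against 151 to 186 CPM in cortex. The 3 choroid plexus markers summed to 613 CPM in the cerebellum of mouse 12 against 1.503 to 5.40 CPM, and to 22.1 and 253.5 CPM in cortex, within the range of the other libraries (7.34 to 521 CPM). The 3 Purkinje cell markers were above the other libraries in all 3, at 2826 CPM against 1963 to 2342 CPM in cerebellum and at 337 and 192 CPM against 111 to 138 CPM in cortex. The 4 cortical pyramidal markers were at 24.5 CPM against 42.1 to 49.6 CPM in cerebellum, and at 260.2 and 223 CPM against 247 to 290.3 CPM in cortex. The 3 granule cell markers were at 1763 CPM against 1910 to 2107 CPM in cerebellum, and the 3 microglial markers were within the range of the others there and below it in cortex. The part of these markers in the result was not tested. Gnb5 was at 0.930, 0.866 and 0.945 of the other Gnb5-/- libraries.

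**Figure D4:**
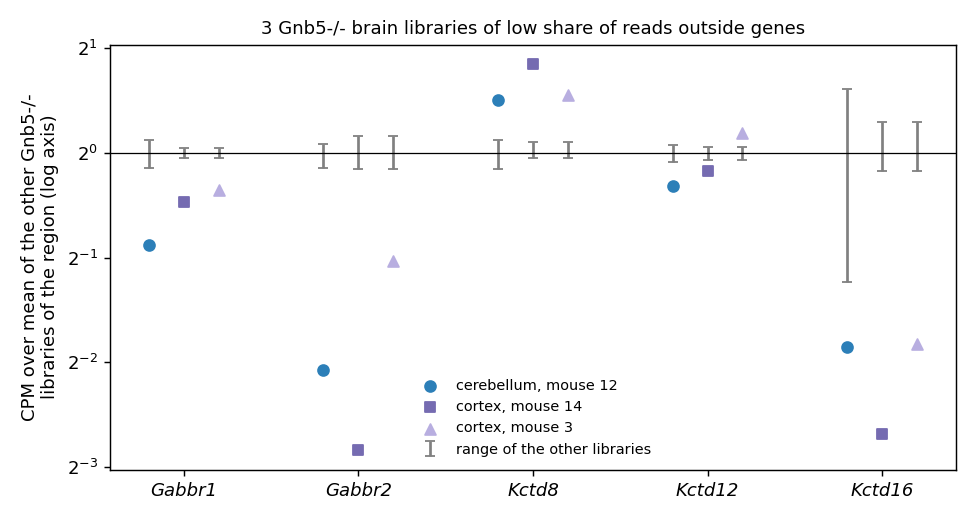
CPM of each gene in the 3 Gnb5-/- libraries of low outside-gene share, divided by the mean of the other Gnb5-/- libraries of that region (log axis). Grey bars are the range of the other libraries. Gabbr2 is at 0.238, 0.140 and 0.487, and Kctd8 at 1.42, 1.802 and 1.46.

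Whether the difference between Gnb5-/- and wild-type mice itself varied by tissue was tested by interaction terms, and none of the 5 genes passed the edgeR or DESeq2 threshold. The share of all genes that passed was 0.00622% between ventricles and atria, 0.0206% between cerebellum and hippocampus, 0.0206% between cerebellum and cortex and 0% between hippocampus and cortex. At an unadjusted p under 0.05 edgeR counted 0, 2, 1 and 1 of the genes, where 3.16%, 3.64%, 3.17% and 6.14% of all genes did. DESeq2 also counted 0, 2, 1 and 1, and its shares of all genes at that level are not reported here. The smallest p was that of Kctd12, whose log2 difference was 0.29 lower in cerebellum than in cortex (interaction -0.29, SE 0.09, adjusted p = 0.931). Without the 3 libraries it was -0.22 (adjusted p = 0.554). For Kctd8, the cerebellar difference exceeded the hippocampal one by 0.57 (SE 0.22, adjusted p = 0.890). This value includes the cerebellum of mouse 12, where Kctd8 was at 19.2 CPM against 12.2 to 14.7 CPM in the other Gnb5-/- cerebella. Its value without the 3 libraries is not reported here.

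The regional order of the KCTD genes was also seen in Gnb5-/- mice, which were not used for the wild-type contrasts. Kctd12 was higher in cerebellum than in cortex in 6 of 6 and higher in hippocampus than in cortex in 6 of 6 Gnb5-/- mice, and higher in cerebellum than in hippocampus in 5 of 6. Kctd8 was highest in cerebellum in 6 of 6. Kctd16 was lowest in cerebellum in 6 of 6, but its order between hippocampus and cortex held in 4 of 6 Gnb5-/- mice, against 6 of 6 wild-type mice. That contrast was -0.15 on the log2 scale (adjusted p = 0.775) in the Gnb5-/- libraries and -0.59 (adjusted p = 0.0184) without the 3 that stood apart. The receptor subunits kept their order less fully. Gabbr2 was lower in cerebellum than in hippocampus in 6 of 6 Gnb5-/- mice. It was lower in cerebellum than in cortex in 3 of 6, against 6 of 6 wild-type mice. For Gabbr1 that order held in 2 of 6, against 6 of 6 wild-type mice. These counts by mouse include the 3 libraries.

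Other genes of the pathway were read from a list of 56, of which edgeR tested 44 in atria, 40 in ventricles and 54 in each brain region. The list held GABA synthesis and transport genes, receptor partners, presynaptic calcium channels, Gi/o alpha and G beta subunits, the R7-RGS complex, GIRK channels and further Kctd genes. None passed the edgeR threshold between genotypes in any tissue. At an unadjusted p under 0.05, 4 counted in Gnb5-/- against wild-type atria, 4 in ventricles, 3 in cerebellum, 2 in hippocampus and 1 in cortex, with 2 and 2 for Gnb5+/- against wild-type and 3 and 3 for Gnb5-/- against Gnb5+/- atria and ventricles. Of all genes tested, 8.15%, 4.78%, 5.85%, 7.7% and 7.39% did for Gnb5-/- against wild-type in the same order of tissues. The shares were 7.22% and 4.84% for Gnb5+/- against wild-type, and 4.86% and 8.79% for Gnb5-/- against Gnb5+/-. The median log2 difference from wild-type in Gnb5-/- mice was between -0.02 and 0.02 in every tissue, as was that of all genes. DESeq2 passed 3 listed genes: Gpr158, the membrane partner of R7-RGS proteins, in Gnb5-/- atria against both other genotypes, Gnb3, a G beta subunit, in Gnb5-/- against Gnb5+/- ventricles, and Gnai2, a Gi alpha subunit, in Gnb5-/- against wild-type cerebellum. The DESeq2 shares of all genes in those 4 comparisons were 0.378%, 0.0837%, 0.244% and 0.2%. In atria, Gpr158 was at 12.6 ± 3.52 CPM in wild-type, 13.03 ± 2.499 in Gnb5+/- and 7.77 ± 1.67 in Gnb5-/- mice, which differed from wild-type by -0.70 on the log2 scale by both tools (edgeR adjusted p = 0.175, DESeq2 adjusted p = 0.0289). Gnb3 was at 9.85 ± 4.01 CPM in wild-type, 9.46 ± 3.72 in Gnb5+/- and 18.8 ± 2.30 in Gnb5-/- ventricles. Its difference from wild-type did not pass here by either tool, whereas the authors report significantly higher Gnb3 in Gnb5-/- than in wild-type ventricles.

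Between wild-type tissues the partners of the receptor followed different patterns. Of the 55 listed genes tested, 10 were higher and 45 lower in heart than in brain by edgeR. Over all genes tested, 90.9% differed and 50.2% were lower. Kctd12b, the close relative of Kctd12, was higher in heart, at 12.4 ± 2.13 CPM in atria and 31.4 ± 13.6 in ventricles against 6.73 ± 0.247 in cerebellum, 6.12 ± 0.788 in hippocampus and 4.34 ± 0.477 in cortex (log2 difference 1.76, SE 0.10). The GIRK subunit Kcnj5, which forms the cardiac channel with Kcnj3, was at 383 ± 13.9 CPM in atria, 121 ± 18.6 in ventricles and at most 0.773 ± 0.212 in brain. The neuronal subunits Kcnj6 and Kcnj9 showed the reverse pattern, like Gabbr2: Kcnj9 was at 138 ± 8.12 CPM in cerebellum and 0.142 ± 0.210 in atria. All 8 genes of GABA synthesis, transport and breakdown were lower in heart than in brain.

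The higher Gabbr2 and Kctd8 of atria over ventricles stood beside a difference in a nerve marker. Dbh, which encodes the enzyme that makes noradrenaline, was at 14.2 to 27.01 CPM in wild-type atria and 2.75 to 7.86 CPM in ventricles. Chat and Th were at 0 in every wild-type ventricle and at no more than 0.0325 and 0.567 CPM in atria, and Prph was at 0.133 to 0.375 CPM in atria and 0.1098 to 0.361 CPM in ventricles. The neuronal markers Rbfox3, Snap25, Syt1 and Stmn2 summed to 2.46 to 8.71 CPM in atria and 5.29 to 8.89 CPM in ventricles, and the Schwann cell markers to 2.52 to 4.32 and 2.91 to 3.80 CPM. Their part in the result was not tested.

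Likeness to other genes was measured by Pearson's r of log2 CPM. Over the 12 group means, the protein-coding genes most like Gabbr1 were Grin1, Soga3 and Cadps (r = 0.9996, 0.9994 and 0.9993), and those most like Gabbr2 were 9330159F19Rik, Slc35f3 and Elovl4 (r = 0.9991, 0.9988 and 0.9986). These values rest largely on the split between heart and brain, which all 12 points share. Over the 36 brain libraries the leading genes were Dnajc5, Slc35e1 and Pde4dip for Gabbr1 (r = 0.933, 0.916 and 0.911) and included Kif3c and Gcn1l1 for Gabbr2 (r = 0.984 and 0.982). Without the 3 libraries that stood apart they were 0.694, 0.491 and 0.562 for Gabbr1 and 0.820 and 0.762 for Gabbr2. The genes most like the KCTD partners in the brain were Arl4c, Dner and Gad1 for Kctd8 (r = 0.982, 0.979 and 0.977), Il16, Stard5 and Zfpm2 for Kctd12 (r = 0.981, 0.980 and 0.979) and Tanc2, Slc1a2 and Drp2 for Kctd16 (r = 0.990, 0.985 and 0.984), where the points share region as well as mouse. Over those libraries Kctd8 and Kctd16 ran against each other (r = -0.903, and -0.891 without the 3), as did Kctd12 and Kctd16 (r = -0.679 and -0.764). Over the 12 group means the nearest genes were Nipal2, Lgalsl and Gng13 for Kctd8, Kit, Trp73 and Tbl2 for Kctd12, and Efcab5, Ptk2 and Cx3cr1 for Kctd16, with r between 0.986 and 0.994.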

How the data were processed

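Total RNA was sequenced as single-end reads from stranded libraries (72 libraries, 18 mice). The authors trimmed reads with cutadapt 1.8, discarded reads from ribosomal RNA or of low complexity, and mapped the rest to GRCm38 with STAR 2.5.3a. They counted reads per gene with HTSeq 0.9.1. The deposited values are raw counts for 53715 gene identifiers, of which 53620 were in the annotation used here and 95 were not. The strand setting of the counting is not given in the sources used here. Reads that HTSeq assigned to no gene stayed out of library sizes and tests. They made up 6.86% to 16.97% of the counted reads in the brain (median 13.9%) and 2.85% to 6.74% in the heart.

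Groups came from the sample labels. Within each tissue, genotypes were compared with the quasi-likelihood test of edgeR 4.0.16 in R 4.3.3 (TMM factors, filterByExpr with a count minimum of 10, Benjamini-Hochberg adjustment over all genes tested, threshold 0.05), for 16181 genes in atria, 14866 in ventricles, 17139 in cerebellum, 17588 in hippocampus and 17967 in cortex. Wild-type tissues were compared in 1 fit of 30 libraries (19477 genes), and genotype differences between tissues by interaction terms. A gene that failed the filter was not tested. The SE of a log2 difference was taken from the F statistic, and the exact permutation test used all 924 splits of log2 CPM (prior count 2) into 6 and 6, where the smallest p is 0.00216. The fits were tested on simulated data. DESeq2 1.42.0, RLE factors, no filter, a filter of 10 counts in every library, robust estimation, 2 genotypes only, a replicate block, the outside-gene share as covariate, and the leaving out of libraries were tried as alternatives. The covariate, the leaving out of both cortical libraries, the 2-tissue fits and the fits without mouse 17 were chosen after seeing the data.

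The same replicate number in different genotypes marks different animals, and the median correlation of such libraries' deviations from their group means was -0.12 to 0.02. Tissues of the same mouse come from 1 animal, and there the medians were 0.12 to 0.45, so the mouse was used as a block in tissue contrasts as an alternative. The 5 genes, the pathway list and the markers were chosen with earlier results of these data known. Genes were named by rule: the 5 genes, Gnb5, listed pathway genes past the threshold between genotypes, the 3 protein-coding genes of highest r with each gene among those with a mean of at least 1 CPM, and markers that move with a result. Results on a few marker and correlated genes are not reported here. Kctd12b, the GIRK subunits and the genes passed by DESeq2 alone were named after their values were seen. Promoter windows came from RefSeq. Intervals and SEs of genotype comparisons within a tissue measure the spread between mice. Those of the wild-type tissue contrasts pool the spread over all 5 tissues in 1 fit. Neither they nor those of the interaction terms use the pairing of tissues by mouse.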

Additional observations from a re-analysis of the deposited data

Results flagged for a closer look

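In 5 of the 60 gene and group combinations 1 library lay far from the other 5, where chance would give about 3. Gabbr1 was at 21.8 CPM in the Gnb5+/- atria of mouse 13, against 27.97 CPM in the next library. In the Gnb5-/- cerebellum of mouse 12, which had a low share of reads outside genes, Gabbr1 was at 297.9 CPM (next 494.1), Gabbr2 at 52.9 CPM (next 201.4) and Kctd8 at 19.2 CPM (next 14.7). Gabbr2 was at 234.9 CPM in the wild-type cortex of mouse 7, against 267 CPM in the next library, and the share of reads outside genes did not set that library apart from the other brain libraries.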

How the results depend on the processing

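No genotype comparison or interaction called any of the 5 genes under any alternative run. From the pathway list, 1 gene passed where edgeR passed 0: by DESeq2 in Gnb5-/- against wild-type atria and cerebellum and against Gnb5+/- atria and ventricles, with the outside-gene share as a covariate in Gnb5-/- against wild-type and Gnb5+/- atria (Gpr158), in cerebellum without mouse 12 (Gpr158), and in the interaction between cerebellum and cortex without the 3 libraries (Gpr158, -0.31 on the log2 scale, edgeR adjusted p = 0.0460). The shares of all genes that passed with the covariate and in the fits without libraries are not reported here. The cause was not tested. In the Gnb5-/- libraries, 2 of 5 genes passed between atria and ventricles, against 4 in wild-type. There the log2 differences of Gabbr1 (0.20) and Kctd16 (-1.45) did not pass. Without the 3 brain libraries in that fit 4 of 5 passed, Gabbr1 at 0.20 (adjusted p = 0.00226) and Kctd16 at -1.43 (adjusted p = 0.00514). The share of all genes that passed in either Gnb5-/- fit is not reported here. The counts between atria and ventricles were therefore not read as a difference between genotypes. Per length of the longest transcript, the wild-type cortical levels were 104.9 CPM per kilobase for Gabbr1, 47.0 for Gabbr2, 4.90 for Kctd16 and 1.56 for Kctd8, against 70.9, 40.4, 3.90 and 1.32 per exon union.

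Every value that changed sign was uncalled, except Gabbr2 between cerebellum and cortex, which was 0.0027 in the Gnb5-/- libraries. With the covariate, the log2 differences in Gnb5-/- against wild-type were 0.17 for Gabbr1 and 0.37 for Gabbr2 in cerebellum, 0.014 for Gabbr1 and -0.072 for Kctd8 in cortex, and -0.0013 for Kctd12 in hippocampus, and Kctd12 was -0.050 in Gnb5-/- against Gnb5+/- ventricles. Without mouse 12 they were 0.079 and 0.11 for Gabbr1 and Gabbr2 in cerebellum, and without both cortical libraries 0.022 for Gabbr1 and -0.058 for Kctd8. The interaction of Kctd8 between cerebellum and cortex was 0.012 by DESeq2 and 0.0099 with RLE factors, 0.032 with the replicate block and 0.20 without the 3 libraries. Without them that of Kctd16 was -0.067, and that of Gabbr2 between cerebellum and hippocampus 0.090. Kctd12 between atria and ventricles was 0.087 in Gnb5-/- libraries and 0.086 without the 3. Between hippocampus and cortex, Gabbr1 was 0.0057 in the fit of those tissues, 0.18 in Gnb5-/- libraries, 0.057 without the 3, 0.022 with no filter, 0.0019 with the mouse block and 0.0098 without mouse 17, and Gabbr2 was 0.47, 0.095, 0.015 and 0.011 in Gnb5-/- libraries, without the 3, with no filter and without mouse 17.

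The replicate block changed no call on the 5 genes. Low counts limit Gabbr2 and Kctd16 in the heart, and the spread of the Gnb5-/- group limits the brain comparisons outside hippocampus.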

Other observations

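Wild-type mouse 17 had the highest Gabbr2 of its group in atria (1.203 CPM) and ventricles (0.494 CPM), the highest Kctd12 in both (45.3 and 59.7 CPM) and the lowest Gabbr1 in both (23.98 and 18.7 CPM). This was noticed after the values were seen, in 1 mouse, and was not tested.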
